A study of Rattus norvegicus with 115 samples.

Results

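Angptl4 and Tfpi2 encode secreted proteins whose transcripts were followed in 9L tumours implanted in rat brain and in the opposite hemisphere after irradiation. They are 2 of 14217 genes measured and 2 of 31099 probe sets on the array, each with 1 probe set annotated to that gene alone. Angptl4 lies on chromosome 7 from base 15252450 to 15259971 of rat build GRCr8. Tfpi2 lies on chromosome 4 from base 32936462 to 32941385. Both were selected on earlier results of these data, chosen by their high levels in irradiated tumours at 6 h, so the 6 h tumour values are described here without a test. High levels were limited neither to tumours nor to 6 h. Both genes were also higher in the irradiated opposite hemisphere at 6 h, and both were again higher in MRT tumours at 8 d.

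Angptl4 is an angiopoietin-like protein that inhibits lipoprotein lipase, the enzyme that releases fatty acids from circulating triglycerides, and it also binds integrins and syndecans and affects the permeability of vessel walls. It is known as a target of the fatty acid sensing PPAR receptors, of hypoxia and of glucocorticoids. Tfpi2 is a Kunitz-type inhibitor of serine proteases, among them plasmin, is deposited in the extracellular matrix, and has been studied in gliomas as a brake on matrix breakdown and invasion.

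Expression was measured on 115 arrays, 59 from tumours and 56 from the contralateral hemisphere of 60 Fisher rats, of which 55 gave both tissues. All rats carried tumours grown from 9L rat glioblastoma cells injected into the right caudate nucleus, and irradiation followed 10 days after implantation. MRT rats received microbeam radiation, in which narrow beams of 400 Gy alternate with valleys of 18 Gy, and BB rats received a broad beam with a dose just below that of the valleys. Untreated rats received no radiation. Tumours numbered 9, 8, 7 and 4 after MRT and 6, 4, 4 and 4 after BB at 6 h, 48 h, 8 d and 15 d, and 5, 4 and 4 without treatment at 6 h, 48 h and 8 d. Contralateral samples numbered 9, 7, 6 and 4 after MRT, 6, 3, 4 and 4 after BB, and 5, 4 and 4 without treatment at the same times. Untreated samples at 15 d were not analysed here. All tumours came from the same cell line, the opposite hemisphere belonged to tumour-bearing animals, and the 35 BB arrays carry sample labels and processing notes of their own, so that effects of the broad beam cannot be told apart from effects of that separate handling. In tissue pieces, a change in the share of a cell type and a change in RNA per cell cannot be told apart either.

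Markers of dividing cells set the tissues apart, at a mean of 10.38 ± 0.56 on the log2 scale in untreated tumours and 5.81 ± 0.13 in untreated contralateral samples at 6 h (SD, n = 5 each). Neuron markers averaged 10.55 ± 0.43 in those tumours and 11.86 ± 0.12 in the contralateral samples, so neuronal transcripts were also present in the tumour pieces. The 3' over 5' signal of the Gapdh control, a measure of RNA integrity, ran from -0.24 to 2.35 on the log2 scale, and its highest value was in the BB tumour of rat 53 at 48 h.

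The promoters are shown because both genes moved together, with the letters of motifs of regulators linked to these genes or to irradiation in capitals. They are RefSeq sequences of build GRCr8, from 250 bases before to 50 bases after the start that the promoter table gives each gene, at chr7:15258632-15258931 for Angptl4 and chr4:32941227-32941526 for Tfpi2, both read on the minus strand. That start lies inside the span of the gene given above, by 1290 bases for Angptl4 and 109 bases for Tfpi2, so positions count from it and not from the outer end of the span.
Angptl4: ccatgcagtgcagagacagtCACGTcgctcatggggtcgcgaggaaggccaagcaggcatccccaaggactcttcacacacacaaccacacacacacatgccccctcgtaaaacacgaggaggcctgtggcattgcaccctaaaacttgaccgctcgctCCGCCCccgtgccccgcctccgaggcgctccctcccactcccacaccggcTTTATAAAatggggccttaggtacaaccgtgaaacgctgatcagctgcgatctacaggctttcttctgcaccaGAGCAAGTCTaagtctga
Tfpi2: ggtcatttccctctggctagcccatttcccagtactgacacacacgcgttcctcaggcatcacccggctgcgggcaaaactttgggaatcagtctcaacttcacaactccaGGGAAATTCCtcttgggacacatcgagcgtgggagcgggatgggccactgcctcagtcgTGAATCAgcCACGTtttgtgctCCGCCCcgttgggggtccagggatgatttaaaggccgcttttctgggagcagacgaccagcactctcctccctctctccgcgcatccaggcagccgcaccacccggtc
Both strands were searched in these windows and in those of all 27457 rat promoters given. In the Angptl4 window the TATA box letters TATAAA were found 2 times, in overlapping positions on opposite strands that begin 41 and 39 bases before the start, and 14.3% of all promoters hold these letters. The Tfpi2 window has no TATAAA. Both windows hold the hypoxia response core ACGTG on the reverse strand, 230 bases before the start in Angptl4 and 71 in Tfpi2, as do 19.7% of all promoters. Both also hold the Sp1 letters GGGCGG on the reverse strand, found in 34.9% of promoters. The Tfpi2 window alone of the pair holds the AP-1 letters TGANTCA, 80 bases before the start (7.33% of promoters), and an NF-kB motif 139 bases before it (7.6%). The Angptl4 window alone of the pair holds a p53 half-site, which lies 33 bases past the start (7.89%). The E-box CACGTG, which would overlap the hypoxia core, was in neither window (6.65% of promoters). Neither window holds the direct repeat to which PPAR receptors bind, present in 0.0583% of promoters, or the glucocorticoid response element, present in 0.423%. Apart from the TATA matches, none of the matches within a window overlapped. A match describes letters only.

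**Figure D1:**
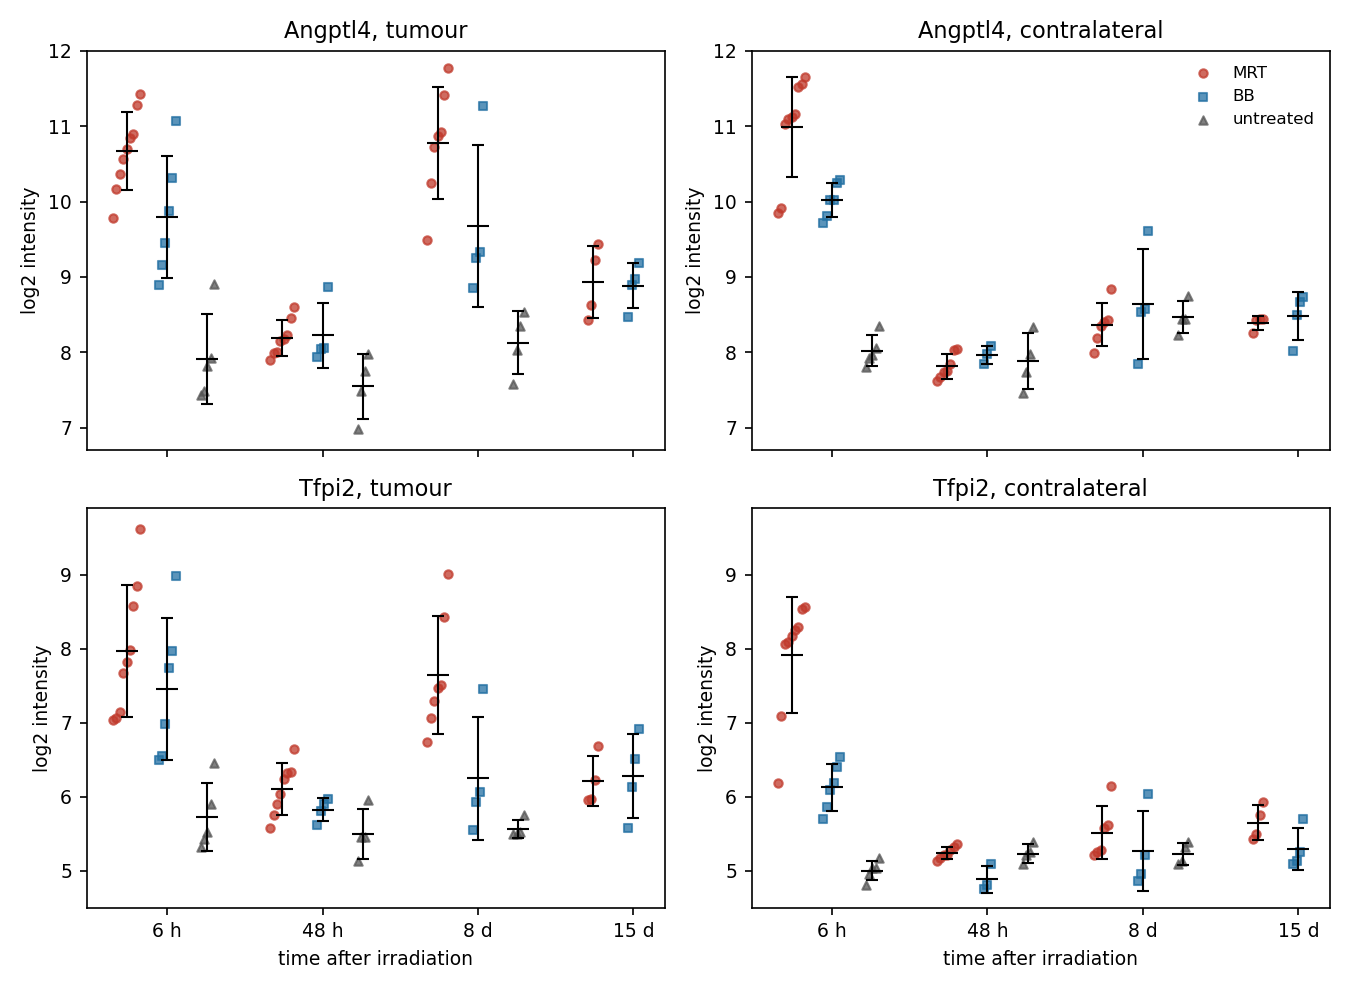
Log2 intensity of Angptl4 (top) and Tfpi2 (bottom) in tumours (left) and the contralateral hemisphere (right) by time after irradiation, 1 point for each array, with MRT, BB and untreated from left to right and bars for the mean ± SD. The irradiated arrays at 6 h stand high in both tissues, and those at 8 d stand high in tumours, with group means of 10.77 for Angptl4 and 7.65 for Tfpi2 after MRT.

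In tumours at 6 h, the values that chose these genes, Angptl4 ran from 9.79 to 11.43 with a median of 10.70 in 9 MRT tumours, and from 8.89 to 11.07 with a median of 9.66 in 6 BB tumours, on the log2 intensity scale. The 5 untreated tumours had 7.43, 7.48, 7.81, 7.92 and 8.90. All MRT tumours lay above all untreated ones, while the lowest BB tumour, of rat 45, lay just below the untreated tumour of rat 5. Tfpi2 ran from 7.03 to 9.62 with a median of 7.82 in MRT tumours and from 6.49 to 8.98 with a median of 7.37 in BB tumours. The untreated tumours had 5.32, 5.43, 5.52, 5.91 and 6.46, and neither irradiated group overlapped them for Tfpi2. The untreated tumour of rat 5 was the highest of its group for both genes.

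The mean difference of MRT from untreated tumours at 6 h was 2.76 for Angptl4, a fold of 6.77, and 2.25 for Tfpi2, a fold of 4.75. BB tumours stood 1.88 above untreated ones for Angptl4, a fold of 3.68, and 1.73 for Tfpi2, a fold of 3.31. MRT exceeded BB tumours by 0.88 and 0.52, and these groups overlapped for both genes. Since these contrasts chose the genes, nothing is read from the share of all genes called at adjusted p under 0.05 by limma, which was 1.42% for MRT against untreated and 15.7% for MRT against BB tumours. For BB against untreated tumours 10.3% of genes were called as higher and 7.09% as lower. Of 5 neutrophil markers measured, 4 rose in MRT and 1 in BB tumours. Their mean was 6.66 ± 0.54 in MRT (n = 9), 5.75 ± 0.62 in BB (n = 6) and 5.12 ± 0.55 in untreated tumours (SD, n = 5). With that mean as a covariate, an alternative added after seeing the data, the MRT difference from untreated was 1.54 for Angptl4 and 1.06 for Tfpi2, and that from BB was 0.16 and -0.18.

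In the contralateral hemisphere at 6 h both genes rose after MRT and after BB. Angptl4 ran from 9.85 to 11.65 with a median of 11.13 after MRT, against 7.81, 7.92, 7.97, 8.06 and 8.35 in untreated rats. Tfpi2 ran from 6.19 to 8.57 with a median of 8.17 after MRT, against 4.81, 4.95, 5.04, 5.04 and 5.17 in untreated rats. MRT and untreated groups did not overlap for either gene, although rats 10 and 7 stood low among the MRT samples for Angptl4 (9.85 and 9.92) and rat 7 for Tfpi2 (6.19). The differences were 2.97 ± 0.21 (SE) for Angptl4, a fold of 7.83 with adjusted p = 4e-16, and 2.92 ± 0.22 for Tfpi2, a fold of 7.54 with adjusted p = 2.6e-15 (limma, Benjamini-Hochberg over 14217 genes). Both genes were thus called as higher, where 8.22% of all genes were called and 5.36% as higher.

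After BB, Angptl4 ran from 9.72 to 10.29 with a median of 10.02 in the contralateral hemisphere at 6 h, and Tfpi2 from 5.70 to 6.54 with a median of 6.14. Neither gene overlapped the untreated values given above. Angptl4 rose by 1.99 ± 0.23, a fold of 3.98 (limma adjusted p = 3.9e-09), and Tfpi2 by 1.13 ± 0.24, a fold of 2.18 (limma adjusted p = 0.00057), where 21.6% of all genes were called and 8.92% as higher. Both irradiated groups were set against the same 5 untreated samples.

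MRT exceeded BB in the contralateral hemisphere at 6 h for both genes, while 5.39% of all genes were called between these groups. The difference was 0.98 ± 0.20 for Angptl4 (limma adjusted p = 0.0032) and 1.79 ± 0.21 for Tfpi2 (limma adjusted p = 5.3e-08). The groups overlapped, since rats 10 and 7 for Angptl4, and rat 7 for Tfpi2, fell within the BB range. Fitting these 2 groups alone left the Angptl4 difference at 0.98 with adjusted p = 0.072.

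Neutrophil markers moved with both genes here. All 5 measured neutrophil markers rose after MRT in the contralateral hemisphere at 6 h, against 5.36% of all genes. After BB 3 of 5 rose, against 8.92% of all genes. Their mean was 6.84 ± 0.83 after MRT (n = 9, from 5.30 to 7.52), 5.47 ± 0.14 after BB (n = 6, from 5.22 to 5.62) and 4.81 ± 0.11 in untreated rats (SD, n = 5, from 4.63 to 4.90). With that mean as a covariate, added after seeing the data, the MRT difference from untreated remained called at 1.56 ± 0.28 for Angptl4 and 1.93 ± 0.34 for Tfpi2, each with limma adjusted p = 0.00036, and the BB difference at 1.54 (limma adjusted p = 3.4e-08) and 0.81 (limma adjusted p = 0.013). The Angptl4 difference between MRT and BB was then 0.02 ± 0.22 (limma adjusted p = 0.97), and that of Tfpi2 was 1.12 ± 0.27 (limma adjusted p = 0.02). The neutrophil mean did not overlap between irradiated and untreated samples, so the fit could not separate the rise of the genes from that of the markers. Other markers moved as well in the MRT samples. Of 10 macrophage and monocyte markers 6 rose and 1 fell, 8 of 10 T and NK cell markers rose, 4 of 6 microglia markers fell and 6 of 12 endothelial markers fell, where 5.36% of all genes were called as higher and 2.86% as lower. With the macrophage and monocyte mean as a covariate all 6 differences of both genes in this tissue at 6 h stayed called, the lowest being 0.72 for Tfpi2 after BB (limma adjusted p = 0.043). That mean did not overlap between irradiated and untreated samples either, so the same limit holds.

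**Figure D2:**
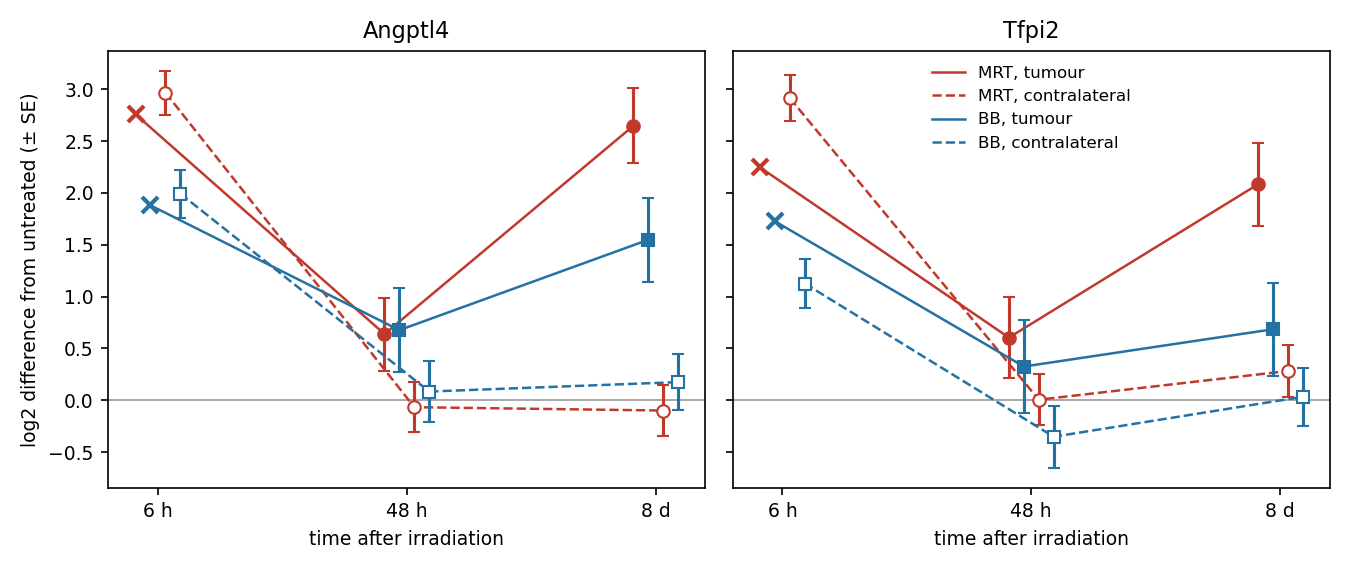
Log2 difference from untreated samples of the same tissue and time for Angptl4 (left) and Tfpi2 (right), with bars for the limma SE, filled symbols for tumours and open symbols for the contralateral hemisphere. Crosses mark the 6 h tumour contrasts that chose the genes and carry no SE, and the difference returns in tumours at 8 d, at 2.65 for Angptl4 and 2.08 for Tfpi2 after MRT.

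By 48 h neither gene differed from untreated samples at the threshold in either tissue. Angptl4 had 7.90 to 8.60 with a median of 8.16 in 8 MRT tumours, 7.93, 8.04, 8.06 and 8.87 in BB tumours, and 6.98, 7.48, 7.75 and 7.98 in untreated tumours. Tfpi2 had 5.58 to 6.64 with a median of 6.15 in MRT tumours, 5.61, 5.81, 5.91 and 5.98 in BB tumours, and 5.13, 5.46, 5.46 and 5.95 in untreated tumours. Irradiated tumours leaned high for both genes, and the groups overlapped.

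The differences from untreated tumours at 48 h were 0.64 ± 0.35 (limma adjusted p = 0.41) and 0.61 ± 0.39 (limma adjusted p = 0.51) for Angptl4 and Tfpi2 after MRT, where 2.35% of all genes were called. After BB they were 0.68 ± 0.41 (limma adjusted p = 0.36) and 0.33 ± 0.45 (limma adjusted p = 0.73), where 2.6% were called. Between MRT and BB tumours 0 of 14217 genes were called by limma, and the unadjusted p was 0.915 for Angptl4 and 0.476 for Tfpi2. Many genes were called in the contralateral hemisphere at this time, 32.2% after MRT and 21.6% after BB, but neither Angptl4 nor Tfpi2 was among them. Their differences from untreated lay between -0.35, for Tfpi2 after BB, and 0.08, for Angptl4 after BB.

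The change of the contralateral effect between 48 h and 6 h was tested in itself, in contrasts added after seeing the data. The MRT effect at 48 h differed from that at 6 h by -3.03 ± 0.32 for Angptl4 (limma adjusted p = 1.8e-09) and -2.91 ± 0.33 for Tfpi2 (limma adjusted p = 1.7e-08), where 9.33% of all genes were called. The BB effect changed by -1.91 ± 0.37 (limma adjusted p = 0.00091) and -1.48 ± 0.38 (limma adjusted p = 0.013), where 9.35% were called. With the neutrophil marker mean as a covariate the BB change of Tfpi2 was -0.97 (limma adjusted p = 0.13).

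At 8 d both genes were again higher in MRT tumours. Angptl4 ran from 9.49 to 11.77 with a median of 10.86 in 7 MRT tumours, against 7.58, 8.03, 8.35 and 8.54 in untreated tumours. Tfpi2 ran from 6.74 to 9.02 with a median of 7.48 in MRT tumours, against 5.49, 5.49, 5.52 and 5.75 in untreated tumours. No MRT tumour overlapped an untreated one, and rat 38 was the lowest and rat 35 the highest MRT tumour for both genes. Angptl4 rose by 2.65 ± 0.36, a fold of 6.27 (limma adjusted p = 7.7e-08), and Tfpi2 by 2.08 ± 0.40, a fold of 4.24 (limma adjusted p = 2.9e-05). Both were called where 47.8% of all genes were, and 21.8% of all genes were called as higher.

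BB tumours at 8 d had Angptl4 values of 8.85, 9.25, 9.33 and 11.27 and Tfpi2 values of 5.55, 5.93, 6.07 and 7.45. For both genes the highest value belonged to rat 55, and the other rats lay nearer the untreated range. Angptl4 was 1.55 ± 0.41 above untreated tumours, a fold of 2.93 (limma adjusted p = 0.0057), with no overlap, and Tfpi2 was 0.69 ± 0.45 above (limma adjusted p = 0.26), where 22.9% of all genes were called and 8.36% as higher. Without rat 55 the Angptl4 difference was 1.02 (limma adjusted p = 0.079), and in a fit of these 2 groups alone it stayed 1.55 with adjusted p = 0.081.

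Between MRT and BB tumours at 8 d, where 1.27% of all genes were called, neither gene passed the threshold. Angptl4 differed by 1.10 ± 0.36 (limma adjusted p = 0.093) and Tfpi2 by 1.40 ± 0.40 (limma adjusted p = 0.057), with overlapping groups. Whether a call was made depended on the tumours kept. Without the BB tumour of rat 55 the differences were 1.63 (limma adjusted p = 0.0019) and 1.80 (limma adjusted p = 0.0034). Both were also called without the MRT tumour of rat 38, at 1.31 (limma adjusted p = 0.035) and 1.55 (limma adjusted p = 0.03), and Tfpi2 also without that of rat 34, at 1.43 (limma adjusted p = 0.045). Without the BB tumour of rat 57 the limma adjusted p rose to 0.6 for Angptl4 and 0.35 for Tfpi2. The lowest differences on leaving out a tumour were 0.82 and 1.17. With the mean of the macrophage and monocyte markers, described next, as a covariate the differences were 0.16 (limma adjusted p = 0.88) and 0.60 (limma adjusted p = 0.71).

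Markers of other cell types moved with both genes in tumours at 8 d. All 10 macrophage and monocyte markers rose after MRT, against 21.8% of all genes, and 4 of 10 rose after BB, against 8.36%. Their mean was 11.45 ± 0.51 in MRT (n = 7, from 10.48 to 12.00), 10.23 ± 1.18 in BB (n = 4, from 9.38 to 11.95) and 9.15 ± 0.49 in untreated tumours (SD, n = 4, from 8.60 to 9.73). The highest BB value, 11.95, was that of rat 55, and the lowest MRT value, 10.48, that of rat 38. With this mean as a covariate, added after seeing the data, the MRT difference was 0.89 ± 0.38 for Angptl4 (limma adjusted p = 0.1) and 0.58 ± 0.48 for Tfpi2 (limma adjusted p = 0.42), and the BB difference of Angptl4 was 0.72 ± 0.33 (limma adjusted p = 0.13). With the neutrophil marker mean in its place the MRT differences stayed called, at 1.66 ± 0.29 (limma adjusted p = 1.8e-05) and 1.12 ± 0.35 (limma adjusted p = 0.0086). The macrophage and monocyte mean did not overlap between MRT and untreated tumours, so its fit could not separate the rise of the genes from that of the markers.

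T and NK cell markers, all 10 higher after MRT, averaged 10.20 ± 0.62 in MRT (n = 7) and 7.60 ± 1.06 in untreated tumours (SD, n = 4). Markers of dividing cells, all 12 lower after MRT, averaged 9.07 ± 0.86 in MRT and 10.62 ± 0.11 in untreated tumours. Neuron markers, 10 of 15 higher after MRT, averaged 9.92 ± 0.75 in MRT and 8.58 ± 0.59 in untreated tumours. Of all genes 21.8% were called as higher and 26.1% as lower between these groups. The part of these cells in the 8 d levels of both genes was not tested beyond the covariates given.

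**Figure D3:**
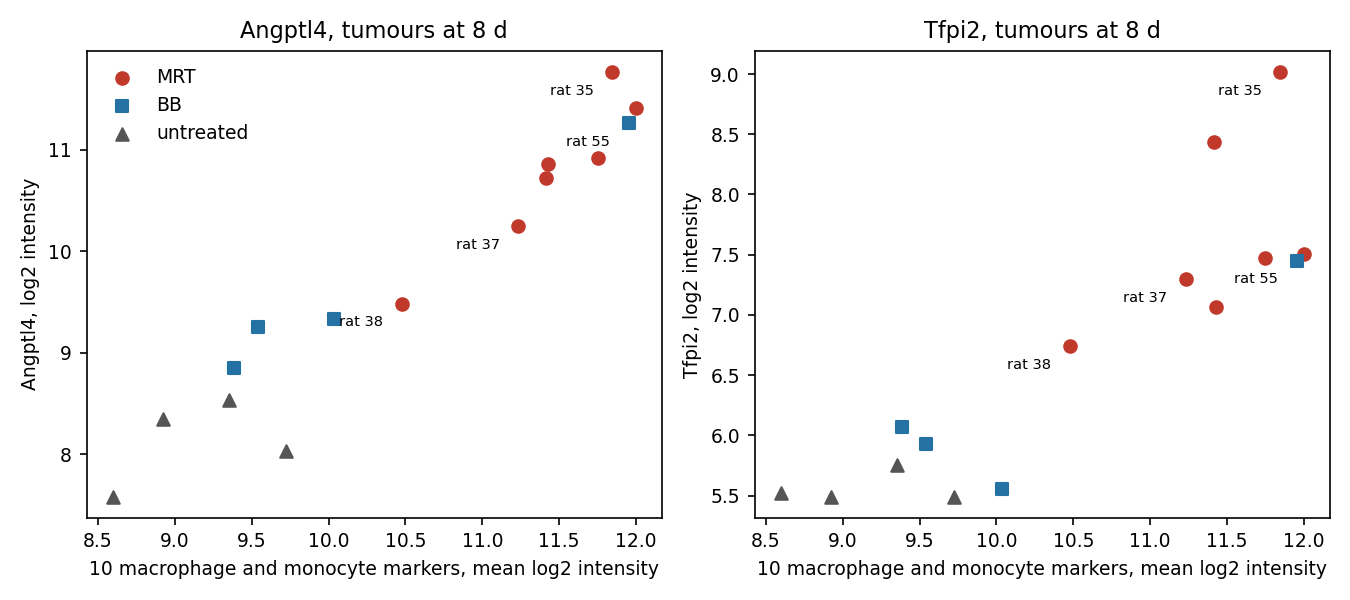
Log2 intensity of Angptl4 (left) and Tfpi2 (right) in each tumour at 8 d against the mean log2 intensity of 10 macrophage and monocyte markers in the same tumour. The MRT tumours lie to the right of the untreated ones, and the BB tumour of rat 55 lies among them, with a marker mean of 11.95.

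Over time, MRT tumours at 8 d exceeded those at 48 h by 2.59 ± 0.30 for Angptl4 (limma adjusted p = 1.3e-09) and 1.54 ± 0.33 for Tfpi2 (limma adjusted p = 0.00021), with no overlap, where 30.8% of all genes were called. With the macrophage and monocyte mean as a covariate these were 1.03 (limma adjusted p = 0.12) and 0.21 (limma adjusted p = 0.94). BB tumours at 8 d exceeded those at 48 h by 1.45 ± 0.41 for Angptl4 (limma adjusted p = 0.018) and 0.42 ± 0.45 for Tfpi2 (limma adjusted p = 0.56), where 10.5% were called. That Angptl4 call was lost without the tumour of rat 55 at 8 d, at 0.92 (limma adjusted p = 0.2), and without rat 50 or rat 51 at 48 h, at 1.35 and 1.39 (limma adjusted p = 0.064 and 0.057). Untreated tumours at 8 d and 48 h differed by 0.58 ± 0.41 (limma adjusted p = 0.31) and 0.07 ± 0.45 (limma adjusted p = 0.93), where 18.2% were called.

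Set against untreated tumours of each time, the MRT effect was larger at 8 d than at 48 h by 2.01 ± 0.50 for Angptl4 (limma adjusted p = 0.0033) and 1.48 ± 0.56 for Tfpi2 (limma adjusted p = 0.039), where 30.1% of all genes were called. The Tfpi2 call depended on the arrays kept. It was lost on leaving out any of 9 tumours, namely untreated rats 17 and 18 and MRT rats 19 and 23 at 48 h, and untreated rats 27, 28 and 30 and MRT rats 35 and 36 at 8 d, with values from 1.25 to 1.49. For BB the change of the effect was 0.87 ± 0.57 (limma adjusted p = 0.25) and 0.36 ± 0.63 (limma adjusted p = 0.68), where 18.3% of genes were called.

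Neither gene was called in the contralateral hemisphere at 8 d. Angptl4 ran from 7.99 to 8.85 with a median of 8.37 in 6 MRT samples, was 7.85, 8.54, 8.57 and 9.61 in BB samples, and was 8.23, 8.44, 8.45 and 8.74 in untreated samples. Tfpi2 ran from 5.21 to 6.15 with a median of 5.44 after MRT, was 4.86, 4.95, 5.21 and 6.04 after BB, and was 5.09, 5.13, 5.32 and 5.39 in untreated rats. The groups overlapped, and rat 55, highest among BB tumours, was also the highest contralateral BB sample for both genes. The differences from untreated were -0.10 ± 0.25 and 0.28 ± 0.25 after MRT (limma adjusted p = 0.91 and 0.64) and 0.18 ± 0.27 and 0.03 ± 0.28 after BB (limma adjusted p = 0.79 and 0.97). Of all genes, 7.91% were called after MRT and 5.94% after BB. Of the 10 macrophage and monocyte markers 7 rose after MRT in these contralateral samples. Their mean was 8.67 ± 0.10 after MRT (n = 6) and 7.22 ± 0.21 in untreated samples (SD, n = 4). The part of these cells in the levels of both genes was not tested beyond the covariates given.

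The MRT effect at 8 d was larger in tumour than in the contralateral hemisphere by 2.75 ± 0.45 for Angptl4 (limma adjusted p = 1.4e-06) and 1.80 ± 0.48 for Tfpi2 (limma adjusted p = 0.0024), where 37% of all genes were called. For BB the same difference was 1.37 ± 0.50 for Angptl4 (limma adjusted p = 0.069) and 0.65 ± 0.54 for Tfpi2 (limma adjusted p = 0.44), where 7.76% were called. The Angptl4 value was called without the BB contralateral sample of rat 55, at 1.70 (limma adjusted p = 0.03), without the BB tumour of rat 57, at 1.65 (limma adjusted p = 0.014), and without the untreated tumour of rat 29, at 1.51 (limma adjusted p = 0.046). Without the BB tumour of rat 55 it fell to 0.84 (limma adjusted p = 0.3). At 48 h the effect did not differ between the tissues at the threshold, by 0.71 and 0.60 after MRT (limma adjusted p = 0.37 and 0.51, 2.48% of genes called) and by 0.59 and 0.68 after BB (limma adjusted p = 0.5 and 0.47, 5.7% called). Untreated tumour and contralateral samples themselves did not differ at the threshold at 48 h or 8 d, although 64.5% and 69.3% of all genes did. The tumour minus contralateral difference of untreated rats was -0.33 at 48 h and -0.34 at 8 d for Angptl4, and 0.27 and 0.33 for Tfpi2, and the tissues did not overlap for Tfpi2 at 8 d.

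At 15 d the MRT tumours had come down. Angptl4 was 8.43, 8.63, 9.22 and 9.43 in MRT tumours at 15 d, all below the lowest MRT tumour at 8 d (9.49). Tfpi2 was 5.95, 5.98, 6.23 and 6.69, all below the lowest at 8 d (6.74). The levels at 15 d were lower than those at 8 d by -1.85 ± 0.36 for Angptl4 (limma adjusted p = 0.00022) and -1.44 ± 0.40 for Tfpi2 (limma adjusted p = 0.0063), where 27.9% of all genes were called. With the macrophage and monocyte mean as a covariate the Tfpi2 difference was -0.93 (limma adjusted p = 0.056).

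BB tumours at 15 d had Angptl4 values of 8.47, 8.90, 8.98 and 9.19 and Tfpi2 values of 5.58, 6.13, 6.51 and 6.92. They differed from BB tumours at 8 d by -0.79 ± 0.41 (limma adjusted p = 0.29) and 0.03 ± 0.45 (limma adjusted p = 0.97), where 1.7% of all genes were called. MRT and BB tumours at 15 d overlapped and differed by 0.04 ± 0.41 for Angptl4 (limma adjusted p = 0.98) and -0.07 ± 0.45 for Tfpi2 (limma adjusted p = 0.97), where 3.05% were called. Tumours at 15 d exceeded the contralateral hemisphere at the threshold only for Tfpi2 after BB, by 0.99 ± 0.38 (limma adjusted p = 0.019), where 61.7% of all genes were called. That value was 0.78 (limma adjusted p = 0.093) without the tumour of rat 58. The other differences between the tissues were 0.40 ± 0.35 for Angptl4 after BB, and 0.54 ± 0.35 for Angptl4 and 0.56 ± 0.38 for Tfpi2 after MRT, where 60.9% of genes were called, with limma adjusted p of 0.33, 0.18 and 0.2. MRT and BB contralateral samples did not differ at the threshold at 48 h, 8 d or 15 d for either gene, with differences from -0.27 to 0.36, where 1.94%, 3.02% and 5.87% of all genes were called.

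Ordered by mean level over the 22 groups, Angptl4 was highest in MRT contralateral samples at 6 h (10.99 ± 0.66), MRT tumours at 8 d (10.77 ± 0.75) and MRT tumours at 6 h (10.67 ± 0.52). BB contralateral samples at 6 h (10.02 ± 0.23), BB tumours at 6 h (9.79 ± 0.81) and BB tumours at 8 d (9.68 ± 1.08) came next. The other 16 groups had means from 7.55 ± 0.43, in untreated tumours at 48 h, to 8.93 ± 0.48, in MRT tumours at 15 d (SD). Of 21 steps between neighbours, 1 exceeded the larger SD of its groups, that between the third and the fourth group.

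Tfpi2 was highest in MRT tumours at 6 h (7.97 ± 0.89), MRT contralateral samples at 6 h (7.92 ± 0.78), MRT tumours at 8 d (7.65 ± 0.80) and BB tumours at 6 h (7.45 ± 0.96). The other 18 groups had means from 4.88 ± 0.18, in BB contralateral samples at 48 h, to 6.29 ± 0.57, in BB tumours at 15 d (SD). Of its 21 steps, 2 exceeded the larger SD of their groups, and the larger of these followed the 4 groups named. BB contralateral samples at 6 h averaged 6.13 ± 0.32, below BB tumours of that time for Tfpi2, whereas for Angptl4 the BB contralateral mean was the higher.

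**Figure D4:**
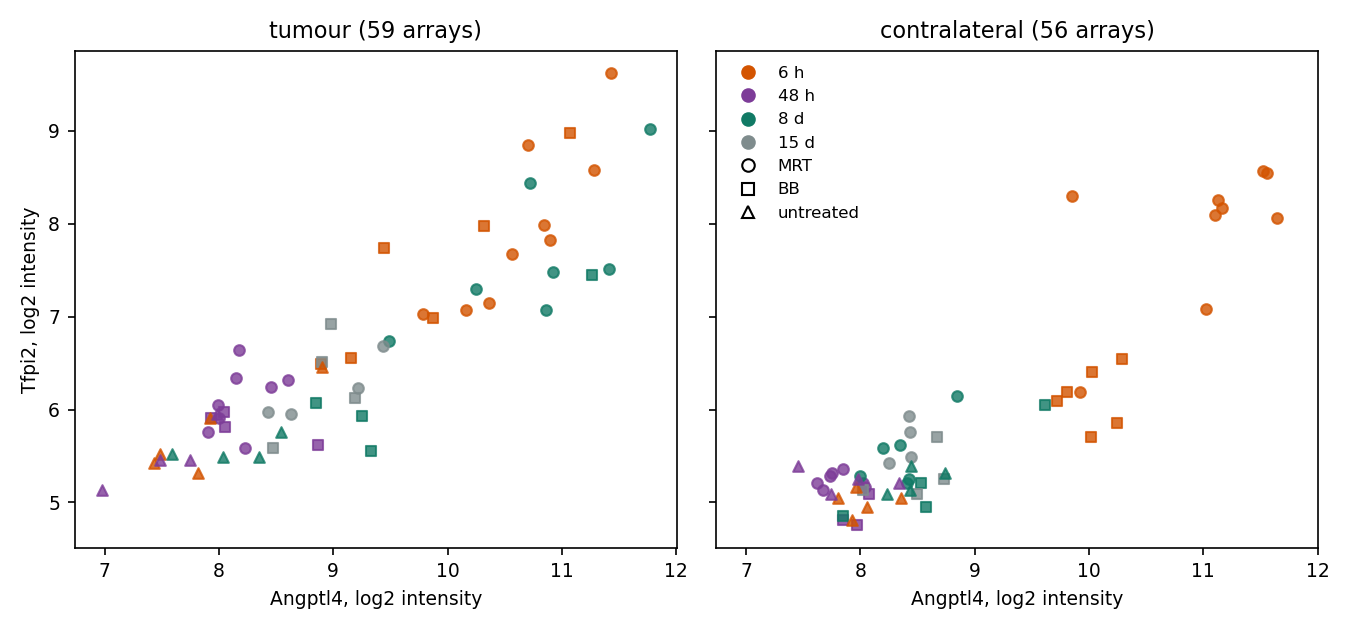
Log2 intensity of Tfpi2 against that of Angptl4 on each tumour array (left, 59 arrays) and each contralateral array (right, 56 arrays), coloured by time, with the symbol giving the treatment. The points run along a common diagonal, at Pearson r of 0.90 in both tissues, and the high end is held by irradiated arrays at 6 h and, in tumours, at 8 d.

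Across the 59 tumour arrays the 2 genes were each other's closest match among 14216 other genes, with a Pearson r of 0.90. The groups share their treatment and time, and the 6 h values that chose the genes add to this r. On the 39 tumour arrays without those of 6 h r was 0.87, but Tfpi2 then ranked 161 among the matches of Angptl4, and Angptl4 ranked 7 among those of Tfpi2. After group means were removed r was 0.76. Over the 56 contralateral arrays it was 0.90. These are descriptions across arrays.

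Within groups of at least 6 samples, 16 relations were computed, 8 between both genes and 8 between the tissues of a rat. The 6 that use tumour values at 6 h are given without a test. Both genes had r = 0.86 (rho 0.88) in the 9 MRT tumours and r = 0.91 (rho 0.94) in the 6 BB tumours at 6 h, or 0.76 and 0.66 without the 2 tumours farthest from the median of Angptl4. The r between tissues at 6 h was 0.52 for Angptl4 and 0.45 for Tfpi2 after MRT, and -0.12 and -0.55 after BB. None of the 10 relations tested passed the threshold after adjustment over the 10, and the lowest adjusted exact permutation p was 0.22 for Pearson r and 0.81 for Spearman rho. Between both genes, r was 0.41 in MRT tumours at 48 h, 0.70 in MRT tumours at 8 d, 0.14 in BB contralateral samples at 6 h, and 0.55, -0.07 and 0.69 in MRT contralateral samples at 6 h, 48 h and 8 d. In MRT tumours at 8 d r was 0.01 without the 2 farthest. Between tissues after MRT, r was 0.13 for Angptl4 and -0.05 for Tfpi2 at 48 h, and 0.75 and 0.89 at 8 d, where it was -0.52 and 0.40 without the 2 farthest. The only unadjusted exact permutation p under 0.05 was that of Tfpi2 between tissues at 8 d (p = 0.037 for r, 0.24 for rho).

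The genes whose pattern over all tumour arrays, those of 6 h included, was most like Angptl4, after Tfpi2, were Steap4, a metalloreductase (r = 0.84), Ccl9, a chemokine (0.84), Irak2, a kinase of interleukin-1 and Toll-like receptor signalling (0.82), Sod2, the mitochondrial superoxide dismutase (0.81), and Ccl20, a chemokine (0.81). For Tfpi2 they were, after Angptl4, Ccl20 (0.81), the monocyte chemokine Ccl2 (0.80), Ccl9 (0.80), S100a9, a calcium-binding protein abundant in neutrophils and monocytes (0.79), and the monocyte chemokine Ccl7 (0.78). After group means were removed these r fell in size, to 0.60 for Ccl20 with Angptl4 and 0.50 for Ccl9 with Tfpi2, and were 0.77 for Ccl2 with Tfpi2 and 0.72 for Irak2 with Angptl4. The ranking rests on the 6 h arrays. Without them the ranks among matches of Angptl4 were 329 for Steap4, 545 for Ccl9, 118 for Irak2, 194 for Sod2 and 403 for Ccl20, and among matches of Tfpi2 30 for Ccl20, 56 for Ccl2, 356 for Ccl9, 332 for S100a9 and 8 for Ccl7. In the same order, r was then 0.83, 0.79, 0.88, 0.86 and 0.82 with Angptl4. With Tfpi2 it was 0.83, 0.81, 0.72, 0.73 and 0.87. Ranks thus fell also for genes whose r did not, since other genes then matched more closely.

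**Figure D5:**
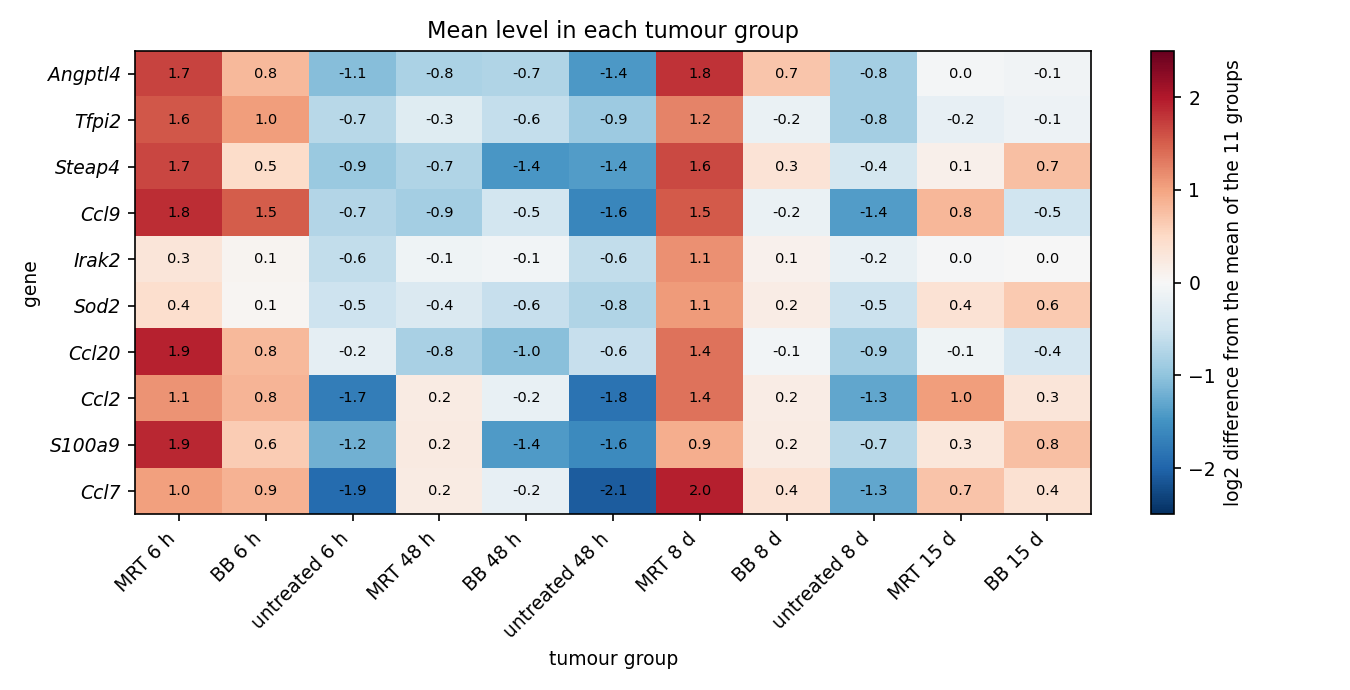
Mean log2 level of Angptl4, Tfpi2 and the genes most like them over all tumour arrays in each of 11 tumour groups, as the difference from the mean of the 11 groups, in which MRT, BB and untreated stand in that order at each time. The MRT columns at 6 h and 8 d are the high ones, at 1.70 and 1.80 for Angptl4. Sod2 is the exception, where the BB column at 15 d (0.65) lies above that of MRT at 6 h (0.42).

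Genes around Angptl4 were read from lists chosen with earlier results known. None of 20 genes of the lipoprotein lipase system passed the test in MRT tumours at 6 h (median -0.06, against -0.01 over all genes), where 1.42% of all genes were called. Lpl, the lipase itself, differed by 0.12 ± 0.45 (limma adjusted p = 0.99) and Gpihbp1, which anchors it to the vessel wall, by -0.04 ± 0.15 (limma adjusted p = 0.99). In BB tumours at 6 h 3 of 20 were higher and 1 lower (median 0.05, as over all genes), where 10.3% of all genes were higher and 7.09% lower, among them Abhd5, a lipase co-activator (0.53 ± 0.14, limma adjusted p = 0.0071), and the receptor Lrp1 (-0.86 ± 0.26, limma adjusted p = 0.017). The 4 called became 2 without untreated rat 2 and 1 without BB rat 46 or BB rat 48. In MRT tumours at 8 d 5 of 20 were higher and 6 lower (median -0.05, against -0.04 over all genes), where 21.8% of all genes were higher and 26.1% lower, and Lpl differed by 1.07 ± 0.50 (limma adjusted p = 0.075). In the contralateral hemisphere at 6 h 1 of 20 was higher and 0 lower after MRT (median 0.03, against -0.01), where 5.36% of all genes were higher and 2.86% lower. Of the other angiopoietin-like genes, none of 3 measured passed in tumours at 6 h after either beam.

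Known inducers of Angptl4 were also read through their target genes. Of 27 PPAR and fatty acid target genes 0 passed the test in MRT tumours at 6 h (median -0.01, as over all genes), where 1.42% of all genes were called. After BB 2 were higher and 1 lower (median 0.13, against 0.05), among them Acot2 (0.57 ± 0.20, limma adjusted p = 0.038) and Hadha (-0.58 ± 0.15, limma adjusted p = 0.0076), enzymes of fatty acid metabolism. Of all genes 10.3% were higher and 7.09% lower after BB at 6 h. In MRT tumours at 8 d 8 of 27 were higher and 3 lower (median 0.22, against -0.04), where 21.8% of all genes were higher and 26.1% lower.

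Of 23 hypoxia genes 1 was higher and 0 lower in MRT tumours at 6 h (median -0.02, against -0.01), where 1.42% of all genes were called. It was Pfkfb3, a regulator of glycolysis (0.92 ± 0.18, limma adjusted p = 0.0016). In BB tumours at 6 h 1 of 23 was called, where 10.3% of all genes were higher and 7.09% lower. That gene was Ddit4, a stress-induced inhibitor of mTOR signalling, which rose (1.03 ± 0.26, limma adjusted p = 0.0046). Ddit4 also rose after BB in the contralateral hemisphere at 6 h (0.67 ± 0.19, limma adjusted p = 0.011). At 8 d 16 of 23 were lower and 1 higher after MRT (median -0.67, against -0.04), and 15 lower and 0 higher after BB (median -0.79, against -0.02), where 26.1% and 14.5% of all genes were called as lower. Pfkfb3 was the member that rose at 8 d after MRT (1.53 ± 0.20, limma adjusted p = 5.4e-08), and Ddit4 then fell by 2.10 (limma adjusted p = 2.4e-08).

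Among 15 glucocorticoid targets 3 were higher and 0 lower in MRT tumours at 6 h (median 0.14, against -0.01), where 1.42% of all genes were called. They were Errfi1, a feedback inhibitor of the EGF receptor (1.00 ± 0.18, limma adjusted p = 0.00048), Lcn2, a neutrophil granule and acute-phase protein that is also in the neutrophil list (1.29 ± 0.26, limma adjusted p = 0.0018), and Nfkbia, the inhibitor of NF-kB (0.92 ± 0.22, limma adjusted p = 0.014). With the neutrophil marker mean as a covariate 0 of 15 were called in these tumours, and likewise 0 of the hypoxia genes, of the integrins and syndecans and of the coagulation and plasminogen genes. Lcn2 is part of that mean, so for Lcn2 the covariate holds the gene's own values. In BB tumours at 6 h 3 of 15 were called, where 10.3% of all genes were higher and 7.09% lower. Those that rose were Errfi1 (0.78 ± 0.20, limma adjusted p = 0.0049), Tat (0.44 ± 0.12, limma adjusted p = 0.0065) and Mt1 (0.83 ± 0.30, limma adjusted p = 0.044). In the contralateral hemisphere at 6 h 4 of 15 were higher and 0 lower after MRT (median 0.29, against -0.01), Nfkbia by 2.23 ± 0.19 (limma adjusted p = 2e-13), and 6 were higher and 1 lower after BB (median 0.45, against 0.00). Of all genes 5.36% were called as higher and 2.86% as lower after MRT. After BB 21.6% of all genes were called, with 8.92% as higher.

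Among 9 integrins and syndecans, a group with partners of Angptl4, 1 was higher in MRT tumours at 6 h, the syndecan Sdc4 (0.90 ± 0.18, limma adjusted p = 0.0014), and 0 were lower (median -0.12, against -0.01), where 1.42% of all genes were called. Sdc4 also rose in the contralateral hemisphere at 6 h, by 1.30 ± 0.14 after MRT (limma adjusted p = 1.7e-10) and 0.82 ± 0.15 after BB (limma adjusted p = 7.7e-05). In BB tumours at 6 h 2 of 9 were called, where 10.3% of all genes were higher and 7.09% lower. Both fell, Sdc3 (-0.64 ± 0.14, limma adjusted p = 0.0016) and Itgb5 (-1.12 ± 0.36, limma adjusted p = 0.026). In MRT tumours at 8 d 2 of 9 were higher and 6 lower (median -0.46, against -0.04), where 21.8% of all genes were higher and 26.1% lower, among them Itgb5, which fell by 2.79 (limma adjusted p = 6.1e-08).

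Around Tfpi2, 0 of 10 Kunitz-type inhibitors other than Tfpi2 passed the test in MRT tumours at 6 h (median -0.12, against -0.01), and 0 of 10 in the contralateral hemisphere at 6 h after MRT (median 0.07, against -0.01). Of all genes 1.42% and 8.22% were called there. Tfpi, the inhibitor of tissue factor signalling, differed by 0.11 ± 0.15 in MRT tumours at 6 h (limma adjusted p = 0.94), rose by 0.52 ± 0.16 in BB tumours (limma adjusted p = 0.023) and fell by 0.45 in MRT tumours at 8 d (limma adjusted p = 0.024). In BB tumours at 6 h 2 of 10 were called, where 10.3% of all genes were higher and 7.09% lower. Besides Tfpi this was Aplp2, which fell (-0.91 ± 0.25, limma adjusted p = 0.008).

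Of 33 coagulation and plasminogen genes 1 was higher and 0 lower in MRT tumours at 6 h (median -0.02, against -0.01), where 1.42% of all genes were called. It was Procr, the protein C receptor of vessel walls (1.24 ± 0.31, limma adjusted p = 0.021), and the count of called genes in this list was 0 without untreated rat 4, untreated rat 5 or MRT rat 8. Procr also rose in BB tumours (1.28 ± 0.34, limma adjusted p = 0.0069) and in the contralateral hemisphere at 6 h (1.72 ± 0.21 after MRT, limma adjusted p = 5.4e-09). In BB tumours at 6 h 5 of 33 were called, where 10.3% of all genes were higher and 7.09% lower. Among them Plgrkt rose (0.69 ± 0.16, limma adjusted p = 0.0021) and F8 fell (-0.78 ± 0.18, limma adjusted p = 0.0027). The plasminogen activator Plau was not called in MRT tumours at 6 h (0.36 ± 0.24, limma adjusted p = 0.72) and rose at 48 h (1.92 ± 0.26, limma adjusted p = 3.7e-06) and 8 d (2.15 ± 0.27, limma adjusted p = 1.4e-08). Tissue factor, F3, differed by -0.09 ± 0.19 at 6 h (limma adjusted p = 0.98) and fell by 0.53 at 8 d (limma adjusted p = 0.037) in MRT tumours. Of 19 matrix metalloproteinases and inhibitors 0 passed in MRT tumours at 6 h (median -0.21, against -0.01), where 1.42% of all genes were called. In BB tumours at 6 h 2 of 19 were called, where 10.3% of all genes were higher and 7.09% lower. Mmp13 rose (1.78 ± 0.64, limma adjusted p = 0.046) and Mmp15 fell (-0.85 ± 0.30, limma adjusted p = 0.038). At 8 d after MRT 7 were higher and 6 lower (median -0.02, against -0.04), where 21.8% of all genes were higher and 26.1% lower.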

How the data were processed

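Per the labels' protocols, total RNA came from the mirVana kit and biotinylated cRNA from the 3' IVT Express kit. The submitters' processing notes name Expression Console of Affymetrix, with RMA and MAS5 for MRT and untreated arrays and RMA for BB arrays. Versions and settings are not given in the sources used here. The deposited values are intensity on a linear scale, in whole numbers from 7 to 27837, of which log2 was taken here. The design had assumed log2 values. Rounding to whole numbers makes the low values of Tfpi2, from an intensity of 27, coarse. Of 31099 probe sets, 57 controls, 436 annotated to several genes and 9780 annotated to no gene were dropped, and the other 20826 gave 14217 genes, each read by its brightest probe set.

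A linear model of group means was fitted in limma 3.58.1 (R 4.3.3, data.table version 1.17.8), separately for tumours and contralateral samples, and on the 115 arrays jointly where tissues were compared. Variances were moderated with an intensity trend, p-values were adjusted by Benjamini-Hochberg across the genes, and called means an adjusted p under 0.05. All differences are log2 values. Relations within groups used exact permutation of pairings (scipy 1.17.1 for ranks). Python 3.11.15, numpy 2.4.6, pandas 2.3.3 and matplotlib 3.10.9 did the rest. Nothing says more of replicates than that they are different rats. Members and gene lists were chosen with earlier results of these data known. The contrasts of an effect between times, the relations within groups and the covariates from marker genes of macrophages or neutrophils were added after seeing the data.

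Genes are named by rule: both members, for each the 6 genes of highest Pearson r over tumour arrays, from each pathway list at most 3 called genes of MRT or BB against untreated tumours at 6 h, and 7 genes of the lipase and plasminogen systems whatever their call. Tissues of the same rat, numbered in the labels, are paired by design. The main comparisons between tissues used group means without a term for rat, and rat entered as a block only in an alternative given below. Once group means were subtracted, tumour and contralateral values of a rat correlated above 0.1 in 38 of 55 rats (median 0.186). Alternatives changed the normalization, the gene filter, the probe set choice, the variance prior, array weights, the groups fitted, covariates and the arrays kept. On simulated data of 14217 genes with 50 changed at each size, 26, 80, 98 and 100% of changes of 0.5, 1, 2 and 3 log2 were recovered for MRT against untreated tumours at 8 d, with 7 of 159 calls false, and 60, 94, 100 and 100% for contralateral MRT against untreated at 6 h, with 8 of 185 false.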

Additional observations from a re-analysis of the deposited data

Results flagged for a closer look

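Of 42 sets of values looked at, each of 1 gene in 1 group of 4 to 9 samples, 3 held an array far from the others, and chance gives about 1 in 20. Angptl4 was 8.25 in the MRT contralateral sample of rat 43 at 15 d, below the others of its group, and 8.87 in the BB tumour of rat 53 at 48 h, above the others. That tumour also had the highest Gapdh 3' over 5' difference, 2.35, and the part of RNA integrity was not tested. Tfpi2 was 5.75 in the untreated tumour of rat 29 at 8 d, above the others.

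Several effects differed by a test of the difference itself. The MRT effect at 8 d was larger in tumour than in the contralateral hemisphere by 2.75 for Angptl4 and 1.80 for Tfpi2. In the contralateral hemisphere the effect at 48 h differed from that at 6 h by -3.03 and -2.91 after MRT and by -1.91 and -1.48 after BB. In tumours the MRT effect at 8 d exceeded that at 48 h by 2.01 and 1.48.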

How the results depend on the processing

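Of 602 values from alternatives other than leaving out arrays, over 68 tested results, 538 kept their direction and their call. This includes 68 from averaging probe sets, which could not move the values of either gene, since each has 1 probe set. Both genes' contralateral differences from untreated at 6 h stayed called under every alternative run. The MRT effect at 8 d in tumour over contralateral stayed called too, but the marker covariates were not run on that contrast. Dropping the variance trend changed no call, and neither did filtering dim genes for Angptl4, while the filter left out Tfpi2. With rat as a replicate block the paired estimate of that effect was 2.48 for Angptl4 (adjusted p = 6.8e-06) and 1.63 for Tfpi2 (adjusted p = 0.0042), and no call changed. Shifting arrays to a common median moved the median of all genes by up to -0.29. Quantile normalization gave 0.0006 for Angptl4 in MRT against BB tumours at 48 h, and 1.24 (adjusted p = 0.081) for the Tfpi2 change of the MRT effect in tumours between 8 d and 48 h. A common median gave 0.0084 and -0.051 for Angptl4 in MRT against BB tumours at 48 h and 15 d, -0.055 for Tfpi2 after MRT at 48 h and -0.0099 after BB at 8 d in contralateral samples, and 1.5 (adjusted p = 0.049) for the Angptl4 BB effect at 8 d in tumour over contralateral. Fitting only the groups compared gave 1.55, 0.98 and 1.45 without a call for Angptl4 in BB tumours at 8 d, in MRT against BB contralateral samples at 6 h and in BB tumours at 8 d against 48 h. It added calls for Tfpi2 between tissues, 0.33 in untreated rats at 8 d and 0.56 after MRT at 15 d. Array quality weights, whose estimation stopped early, called MRT against BB tumours at 8 d (1.61 and 2.11), BB tumours at 15 d against 8 d (-0.45 and 0.78) and the Angptl4 BB effect at 8 d in tumour over contralateral (1.47). They gave 0.059 for Angptl4 in MRT against BB tumours at 48 h, -0.28 and -0.31 for Tfpi2 in BB tumours at 8 d against 48 h and for that change of effect, and -0.024 for Angptl4 after BB in contralateral samples at 48 h. With neuron markers as a covariate Tfpi2 gave 1.40 (adjusted p = 0.045) in MRT against BB tumours at 8 d and 1.49 (adjusted p = 0.1) for the change of the MRT effect. Without MRT rats 37 and 38, left out after seeing their neuron markers, MRT against BB tumours at 8 d was called, at 1.46 and 1.65.

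With macrophage and monocyte markers as a covariate the tumour values were, for Angptl4 and Tfpi2, -0.52 and -0.39 after MRT and -0.26 and -0.47 after BB at 48 h, 0.89 and 0.58 after MRT and 0.72 and -0.021 after BB at 8 d, and between 8 d and 48 h 1.03 and 0.21 in MRT, 0.60 and -0.30 in BB and -0.38 and -0.76 in untreated tumours. Between 15 d and 8 d they were -0.93 for Tfpi2 after MRT, and -1.11 (adjusted p = 0.032) and -0.24 after BB, and the change of the Tfpi2 MRT effect was 0.96. In contralateral samples the same covariate gave -1.12 (adjusted p = 0.019) and -1.02 (adjusted p = 0.039) after MRT and -0.33 and -0.75 (adjusted p = 0.045 for Tfpi2) after BB at 48 h, -0.58 for Tfpi2 after MRT and -0.066 and -0.20 after BB at 8 d, and -0.27, -0.37 and -0.094 for Tfpi2 in MRT against BB at 48 h, 8 d and 15 d. With neutrophil markers the tumour values were -0.028 and -0.044 after MRT and -0.26 for Tfpi2 in MRT against BB at 48 h, 0.72 and -0.29 in BB and -0.14 for Tfpi2 in untreated tumours between 8 d and 48 h, -0.15 for the Tfpi2 change of the BB effect, and at 6 h 1.54 and 1.06 for MRT against untreated and 0.16 and -0.18 for MRT against BB. Contralateral values were 0.021 for Angptl4 after MRT at 48 h, -0.0076 for Tfpi2 after BB at 8 d, 0.025 for Angptl4 in MRT against BB at 6 h and -0.97 for the Tfpi2 change of the BB effect. The cause of these changes was not tested. Where a marker mean did not overlap between the groups compared, the fit could not separate the change of a gene from that of the markers. The r of both genes over tumour arrays was 0.76 within groups.

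Leaving out each array in turn gave, for Angptl4, 1.02 to 1.82 after BB and 0.82 to 1.63 for MRT against BB in tumours at 8 d, -0.14 to 0.18 and -0.13 to 0.21 for MRT against BB tumours at 48 h and 15 d, 0.92 to 1.72 in BB tumours at 8 d against 48 h, 0.84 to 1.70 for the BB effect at 8 d in tumour over contralateral, and in contralateral samples -0.21 to 0.086 after MRT and -0.055 to 0.24 after BB at 48 h, -0.15 to 0.44 after BB and -0.54 to 0.05 for MRT against BB at 8 d. For Tfpi2 it gave 1.17 to 1.80 and -0.31 to 0.14 for MRT against BB tumours at 8 d and 15 d, -0.059 to 0.22 in untreated tumours at 8 d against 48 h, -0.20 to 0.43 in BB tumours at 15 d against 8 d, 1.25 to 1.63 and -0.041 to 0.59 for the changes of the MRT and BB effects in tumours between 8 d and 48 h, 0.78 to 1.23 for BB tumours over contralateral samples at 15 d, and -0.043 to 0.059 after MRT at 48 h and -0.23 to 0.17 after BB at 8 d in contralateral samples. Counts of called list genes at 6 h moved with the settings, for coagulation and plasminogen genes from 0 to 7 after MRT and 0 to 8 after BB, for PPAR targets from 0 to 5 and 0 to 8, and for the lipase system from 0 to 2 and 0 to 5. Fitting only the groups compared left 0 called after BB in each list, and averaging probe sets left 1 PPAR target and 1 Kunitz-type inhibitor. Group sizes of 3 to 9 limit the precision, and values near the low end of the scale are coarse. Probe sets cannot be compared in level.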
